A study of Homo sapiens with 6 samples.

Results

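The drug exporters of the ATP-binding cassette (ABC) family were examined in HT29 cells, a human colon adenocarcinoma line, that had become resistant to methotrexate (MTX), and were set against those of HT29 cells sensitive to it. The members were listed by gene name, 9 in all (P-glycoprotein, the multidrug resistance proteins of subfamily C and the breast cancer resistance protein), and every probe set annotated to one of them was taken. Of these genes, 8 had a probe set and 1 was not analysed here, out of 19775 genes named by a probe set in the whole table. The 8 genes had 20 probe sets that name a single gene, between 1 and 5 each, and 1 further probe set is shared by ABCB1 and its neighbour in the family, ABCB4. RNA was hybridised to Affymetrix HG U133 Plus 2.0 arrays, 1 for each of 3 samples of resistant cells and 3 samples of sensitive cells. The resistant cells had been selected with stepwise increasing MTX until they withstood 10 μM of the drug, and were kept in medium without glycine, hypoxanthine and thymidine, with dialyzed serum. The sensitive cells were kept in Ham's F12 with fetal bovine serum, so resistance and the medium cannot be told apart in these arrays. Each group stands for 1 cell population, and nothing in the sources says that the 3 samples were separate cultures, so the p-values measure only how far these samples spread, and that spread may be technical.

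ABC exporters are membrane proteins that bind ATP on the inner face of the cell and use its hydrolysis to push a compound out, against its gradient. MTX is an antifolate that enters cells on folate carriers, is lengthened with glutamate residues that hold it inside, and blocks the enzyme that regenerates reduced folate. Unmodified MTX is an organic anion, and the multidrug resistance proteins ABCC1 to ABCC5 and the breast cancer resistance protein ABCG2 are known to carry it out of cells. P-glycoprotein, the product of ABCB1, mainly carries neutral or cationic hydrophobic drugs. In polarised epithelium such as the gut, ABCC2, ABCG2 and P-glycoprotein lie in the apical membrane facing the lumen, and ABCC1 and ABCC3 in the basolateral membrane facing the blood.

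Of the 5 exporters with 1 or more probe sets past the test (ABCC2, ABCC3, ABCC4, ABCC5 and ABCG2), the promoter windows of all but ABCC3 are shown first, since these are the stretches in front of the genes that the measurements below turn on. They are RefSeq sequences of build GRCh38.p14, each running from 250 bases before to 50 bases after the annotated start, written 5′ to 3′ on the strand of the gene. Capitals mark matches to any of 5 short motifs, searched on both strands. They include the GC box GGGCGG, the CCAAT box CCAAT, the core of the xenobiotic response element GCGTG and that of the hypoxia response element ACGTG. The last is TGANNNNGC, where N is any base. It is a loose form of the core of the antioxidant response element, called the antioxidant core below.
ABCC2, chr10:99782390-99782689, plus strand: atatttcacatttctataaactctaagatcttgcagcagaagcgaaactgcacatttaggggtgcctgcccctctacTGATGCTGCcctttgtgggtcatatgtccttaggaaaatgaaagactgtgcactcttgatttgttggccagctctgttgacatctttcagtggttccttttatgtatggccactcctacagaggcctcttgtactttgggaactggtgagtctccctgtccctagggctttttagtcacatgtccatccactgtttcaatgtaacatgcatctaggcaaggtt
ABCC4, chr13:95301402-95301701, minus strand: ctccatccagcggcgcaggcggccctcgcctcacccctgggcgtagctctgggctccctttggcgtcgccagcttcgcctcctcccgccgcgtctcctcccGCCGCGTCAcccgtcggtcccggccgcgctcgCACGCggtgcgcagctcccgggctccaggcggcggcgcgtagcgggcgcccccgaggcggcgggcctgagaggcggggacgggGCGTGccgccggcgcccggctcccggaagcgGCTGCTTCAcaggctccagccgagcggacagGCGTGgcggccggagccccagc
ABCC5, chr3:184017835-184018134, minus strand: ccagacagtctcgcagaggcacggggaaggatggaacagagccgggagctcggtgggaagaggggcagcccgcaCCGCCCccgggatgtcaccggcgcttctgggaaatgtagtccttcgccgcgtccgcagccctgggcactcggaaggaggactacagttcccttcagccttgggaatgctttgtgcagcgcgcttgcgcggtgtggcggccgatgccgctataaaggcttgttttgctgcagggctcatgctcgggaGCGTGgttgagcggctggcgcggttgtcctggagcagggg
ABCG2, chr4:88158810-88159109, minus strand: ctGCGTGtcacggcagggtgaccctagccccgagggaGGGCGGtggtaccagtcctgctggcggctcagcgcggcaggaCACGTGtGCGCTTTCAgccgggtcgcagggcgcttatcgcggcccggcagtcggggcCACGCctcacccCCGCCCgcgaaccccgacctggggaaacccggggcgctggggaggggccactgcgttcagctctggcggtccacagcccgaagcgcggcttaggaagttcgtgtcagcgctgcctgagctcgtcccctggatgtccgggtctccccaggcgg
The ABCC2 window held 1 match, the antioxidant core TGATGCTGC, whose first base lies 173 bases before the start, and 45.0% of its bases were G or C. That share was 79.7% for ABCC4, 65.7% for ABCC5 and 72.3% for ABCG2, against a median of 58.7% over all 35116 promoter windows of the same length. The ABCC4 window held 3 xenobiotic and 2 antioxidant cores, and the ABCC5 window 1 GC box and 1 xenobiotic core. The ABCG2 window held 2 GC boxes, 2 xenobiotic cores and 1 antioxidant core, and its CACGTG was matched on both strands by the hypoxia core. The letters CCAAT occurred in none of the 4 windows. These motifs are short and common: GGGCGG was found in 45.0% of all windows, CCAAT in 34.6%, GCGTG in 36.5%, ACGTG in 21.4% and TGANNNNGC in 41.8%. A match is a description of the letters and was not tested for binding.

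Signals are given as scaled signals, that is, the deposited MAS5 signal of a probe set divided by the median signal of its array, so that 1 is the level of the middle probe set. The array medians were 13.3, 16.0 and 16.9 in resistant cells and 14.2, 15.0 and 15.4 in sensitive cells. Markers of colon epithelium matched the labelled cell type, with 10 of 12 above a mean scaled signal of 1 and CDX1 and CDX2 below it. Their summed scaled signal was 1606 to 1810 in resistant cells and 2103 to 2325 in sensitive cells. Markers of other cell types were mostly under 1 (7 of 9 for hepatocytes, 6 of 7 for fibroblasts and endothelium, 2 of 4 for blood cells), and their summed signals overlapped between the groups. On the ACTB control probe sets, a sign of RNA quality, the ratio of 3′ to 5′ signal was 1.30, 1.29 and 1.17 in resistant cells. It was 1.14, 1.12 and 1.17 in sensitive cells. On the GAPDH control probe sets the ratio was 0.98, 1.04 and 1.04 in resistant cells and 1.01, 1.01 and 1.00 in sensitive cells. The part of RNA quality in the results below was not tested.

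The exporters did not move together. ABCC2, the apical exporter of organic anions, rose in resistant cells, by a size that is poorly fixed because its signal in sensitive cells was near the lower end of the scale, while ABCC4 (log2 fold changes of -0.89 to -1.12) and ABCG2 (-1.23) fell. ABCC3 and ABCC5 rose by 0.53 and 0.52 on the log2 scale at 1 probe set each, and ABCC1, ABCC10 and ABCB1 had no probe set past the test. Of the 20 probe sets, 17 averaged a scaled signal of 1 or more across the 6 arrays and were tested with limma, and the 3 others (2 of ABCB1 and 1 of ABCC4) are called dim and are given as values. Resistant cells were higher at 3 of the 17 and lower at 4, with an adjusted p under 0.05, against 9.52% higher and 19.5% lower (29.0% in either direction) of all 26833 probe sets tested. ABCC2, 1 of the 3, passed the filter on low values only through the resistant arrays. It is also among the counts that follow in this paragraph. The 3 resistant values lay wholly above or below the 3 sensitive values at 10 of the 17, against 42.3% of all probe sets tested. Counted by gene at the brightest probe set, 2 of 7 tested exporters were higher and 2 lower, against 12.4% higher and 22.5% lower (34.9% in either direction) of 11835 genes. The median log2 fold change (resistant over sensitive) was 0.03 over the 17 member probe sets and -0.12 over all probe sets tested. Relative to that overall median, ABCG2 had a log2 fold change of -1.11. Quantile normalization brought that overall median to -0.02 and raised all higher calls to 4189 against 4324 lower ones, where median scaling gave 2554 higher and 5237 lower. With the 3-fold minimum of the study's methods added, ABCC2 was the 1 member probe set called higher and none was called lower. Of all probe sets tested, 418 were then higher and 509 lower. Without the minimum, limma gave an unadjusted p under 0.05 at 4 member probe sets in each direction. The share of all probe sets at that unadjusted threshold is not given here, so these counts are no result about the exporters.

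**Figure D1:**
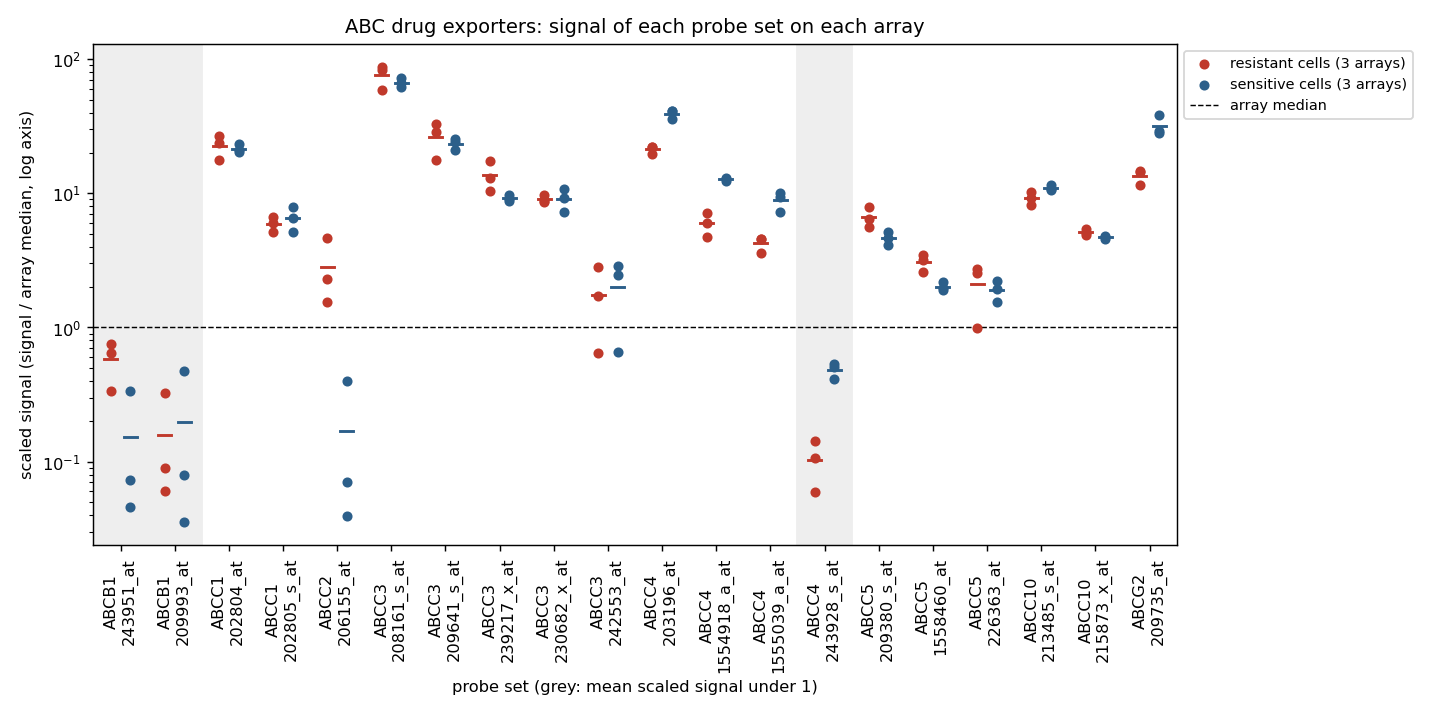
Scaled signals (log axis, 1 = array median) of the member probe sets in the 3 resistant and 3 sensitive samples, 1 point per array. The resistant points of ABCC2 (1.56 to 4.62) lie above its sensitive points (0.0390 to 0.400), and those of ABCG2 and of all 4 ABCC4 probe sets lie below.

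ABCC2 encodes the apical exporter that moves glucuronide and glutathione conjugates, bilirubin glucuronide among them, into bile and the gut lumen. Its 1 probe set (206155_at) had scaled signals of 2.31, 1.56 and 4.62 in resistant cells, against 0.0704, 0.400 and 0.0390 in sensitive cells. All 3 resistant arrays were above the array median and all 3 sensitive arrays were below it, with no overlap. The means were 2.83 ± 1.59 in resistant cells and 0.170 ± 0.200 in sensitive cells (SD, n = 3 each), and the log2 fold change was 4.63 (SE 1.08, 95% interval 2.39 to 6.87, limma adjusted p = 0.0025). Before scaling the deposited signals were 30.7, 24.9 and 78 in resistant cells, against 1, 6 and 0.6 in sensitive cells, which are close to the lower end of the scale. The size of the change depends on how such signals are treated: it was 3.12 with signals under 0.25 set to that value and 1.64 on the log2(signal + 1) scale, past the test in both. The probe set passed the filter on low values only through the resistant arrays. Leaving out resistant replicate 3, the highest of the 3, gave a log2 fold change of 4.20 and ended the call (limma adjusted p = 0.11). In a culture measured as a whole, more cells with the transcript and more transcript per cell cannot be told apart.

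ABCC4 encodes an exporter of cyclic nucleotides, prostaglandins, nucleotide analogues and MTX. Its brightest probe set (203196_at) had scaled signals of 22.0, 22.3 and 19.5 in resistant cells, against 41.3, 35.8 and 40.9 in sensitive cells. The groups did not overlap, and the log2 fold change was -0.89 (SE 0.15, 95% interval -1.19 to -0.59, limma adjusted p = 7.9e-05). Probe set 1554918_a_at gave 7.09, 4.74 and 6.05 in resistant cells, against 12.4, 13.0 and 12.9 in sensitive cells. Its log2 fold change was -1.12 (SE 0.18, limma adjusted p = 7.0e-05), again without overlap. Probe set 1555039_a_at gave 4.57, 4.58 and 3.57 in resistant cells, against 10.1, 9.33 and 7.24 in sensitive cells, with a log2 fold change of -1.07 (SE 0.19, limma adjusted p = 2.3e-04). The 3 tested probe sets thus gave the same direction and nearly the same size, within their intervals. The dim probe set 243928_s_at had 0.143, 0.106 and 0.0592 in resistant cells, against 0.415, 0.533 and 0.506 in sensitive cells, also lower in every resistant array. These probe sets read the same transcripts of the same samples and are not independent replicates.

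ABCG2 encodes the breast cancer resistance protein, an apical exporter that works as a homodimer and carries MTX, short MTX polyglutamates, folates and urate. Its 1 probe set (209735_at) had scaled signals of 14.4, 14.7 and 11.5 in resistant cells, against 38.1, 29.3 and 28.0 in sensitive cells. Every resistant array was below every sensitive array. The means were 13.5 ± 1.74 in resistant cells and 31.8 ± 5.53 in sensitive cells (SD, n = 3 each), a level 2.35 times as high in sensitive cells. The log2 fold change was -1.23 (SE 0.17, 95% interval -1.57 to -0.88, limma adjusted p = 7.8e-06), and it was -1.05 after quantile normalization (limma adjusted p = 1.7e-04).

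**Figure D2:**
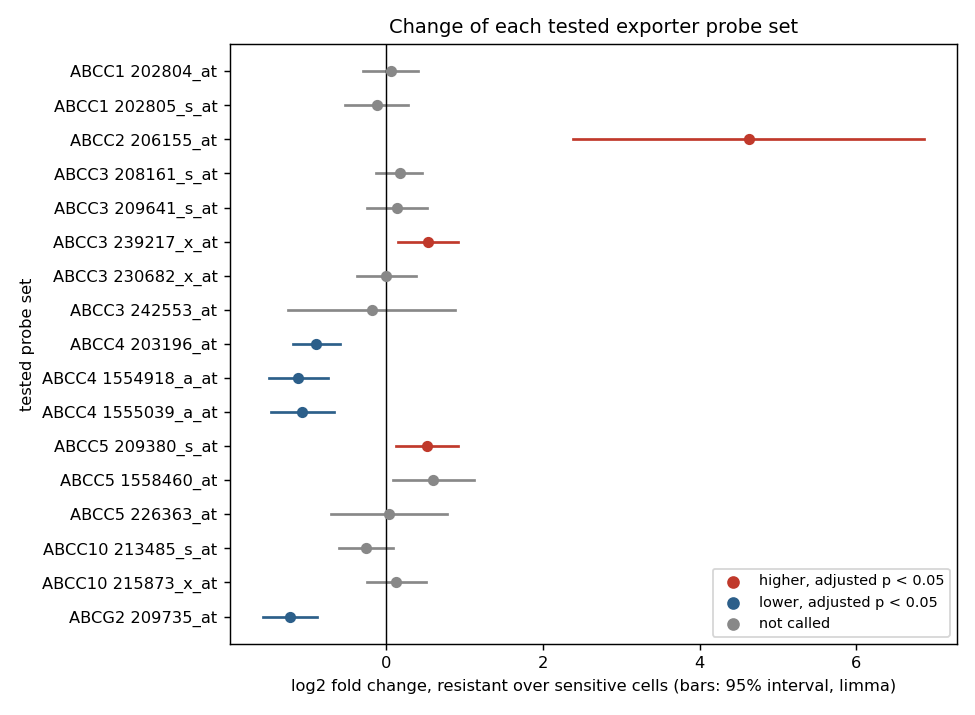
Log2 fold change (resistant over sensitive) of each tested member probe set with its 95% interval from limma. ABCC2 (4.63) lies far to the right with the widest interval, the ABCC4 and ABCG2 intervals lie wholly below 0, and most of the others cross 0.

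ABCC5 encodes an exporter of cyclic nucleotides that also carries MTX and MTX diglutamate. At its brightest probe set (209380_s_at) the scaled signals were 7.95, 6.41 and 5.60 in resistant cells, against 5.11, 4.62 and 4.10 in sensitive cells. The groups did not overlap and the log2 fold change of 0.52 (SE 0.19, 95% interval 0.12 to 0.92) just passed the test (limma adjusted p = 0.048). Leaving out any 1 array other than resistant replicate 3 ended that call, with values of 0.38 to 0.60 and limma adjusted p of 0.055 to 0.17. Probe set 1558460_at had 3.45, 2.57 and 3.20 in resistant cells, against 1.97, 1.89 and 2.18 in sensitive cells. These did not overlap either, and their log2 fold change of 0.60 (SE 0.25) did not pass (limma adjusted p = 0.072), while quantile normalization took it past the test (limma adjusted p = 0.036). The probe sets did not all move alike, since 226363_at had 2.75, 2.55 and 0.988 in resistant cells, against 1.54, 2.21 and 1.94 in sensitive cells, with a log2 fold change of 0.03 (SE 0.36, limma adjusted p = 0.97). Averaged over its probe sets, ABCC5 had a log2 fold change of 0.38 and was not called (limma adjusted p = 0.19).

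ABCC3 encodes the basolateral exporter of glucuronides, bile acids and MTX. It had 5 probe sets, of which 1 passed the test. That one (239217_x_at) had scaled signals of 17.3, 13.0 and 10.5 in resistant cells, against 9.74, 9.10 and 8.81 in sensitive cells, with no overlap and a log2 fold change of 0.53 (SE 0.18, limma adjusted p = 0.034). Here too, leaving out any 1 array other than resistant replicate 3 ended the call, with values of 0.35 to 0.57 and limma adjusted p of 0.057 to 0.11. The ending of its name marks a probe set in which some probes also match other sequences. The brightest probe set (208161_s_at) had 87.9, 82.5 and 58.9 in resistant cells, against 62.3, 67.0 and 71.9 in sensitive cells. Resistant replicate 3 lay below all sensitive arrays and the other resistant arrays above them, and the log2 fold change was 0.17 (SE 0.14, limma adjusted p = 0.40). Probe set 209641_s_at showed the same order, with 32.9, 28.7 and 17.8 in resistant cells, against 24.0, 25.3 and 20.9 in sensitive cells (limma adjusted p = 0.63). The remaining probe sets overlapped widely: 230682_x_at had 9.78, 8.58 and 8.72 in resistant cells, against 7.31, 9.23 and 10.8 in sensitive cells. Likewise 242553_at had 0.647, 2.84 and 1.72 in resistant cells, against 0.655, 2.86 and 2.47 in sensitive cells. A change of ABCC3 as a gene therefore rested on 1 of 5 probe sets.

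ABCC1 encodes the basolateral exporter of glutathione conjugates such as leukotriene C4. Its brighter probe set (202804_at) had scaled signals of 23.7, 17.6 and 26.7 in resistant cells, against 20.9, 20.2 and 23.2 in sensitive cells. The resistant values spanned the sensitive ones on both sides, and the log2 fold change was 0.06 (SE 0.17, 95% interval -0.29 to 0.41, limma adjusted p = 0.82). Probe set 202805_s_at had 6.61, 5.16 and 6.05 in resistant cells, against 6.56, 7.94 and 5.12 in sensitive cells, with a log2 fold change of -0.12 (95% interval -0.53 to 0.28, limma adjusted p = 0.68). A p that misses the threshold does not show that ABCC1 was alike in both groups: differences within these intervals are not excluded.

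ABCC10, an exporter of taxanes and other natural products, gave opposite signs at its probe sets. Probe set 213485_s_at had scaled signals of 10.2, 8.22 and 9.31 in resistant cells, against 10.8, 11.5 and 10.6 in sensitive cells, all lower in resistant cells. Probe set 215873_x_at, some of whose probes also match other sequences by the ending of its name, went the other way. It had 5.39, 4.89 and 5.08 in resistant cells, against 4.70, 4.79 and 4.57 in sensitive cells, all higher in resistant cells. Neither passed the test, with log2 fold changes of -0.26 (SE 0.17, limma adjusted p = 0.27) and 0.13 (SE 0.18, limma adjusted p = 0.65).

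ABCB1, which encodes P-glycoprotein, was under the array median on every array. Probe set 243951_at had scaled signals of 0.647, 0.750 and 0.337 in resistant cells, against 0.338, 0.0733 and 0.0455 in sensitive cells. The lowest resistant value overlapped the highest sensitive value, and in the fit without a filter the log2 fold change was 2.39 (SE 0.95, limma adjusted p = 0.14). Probe set 209993_at had 0.0602, 0.325 and 0.0888 in resistant cells, against 0.0352, 0.0800 and 0.474 in sensitive cells, with no order between the groups. The probe set shared with ABCB4, a phospholipid exporter of the bile canaliculus, had 0.218, 0.887 and 0.0888 in resistant cells, against 0.401, 0.900 and 0.0779 in sensitive cells, and was left out of all counts. Signals this low set no firm level, so that a difference in ABCB1 was not detectable on these arrays.

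**Figure D3:**
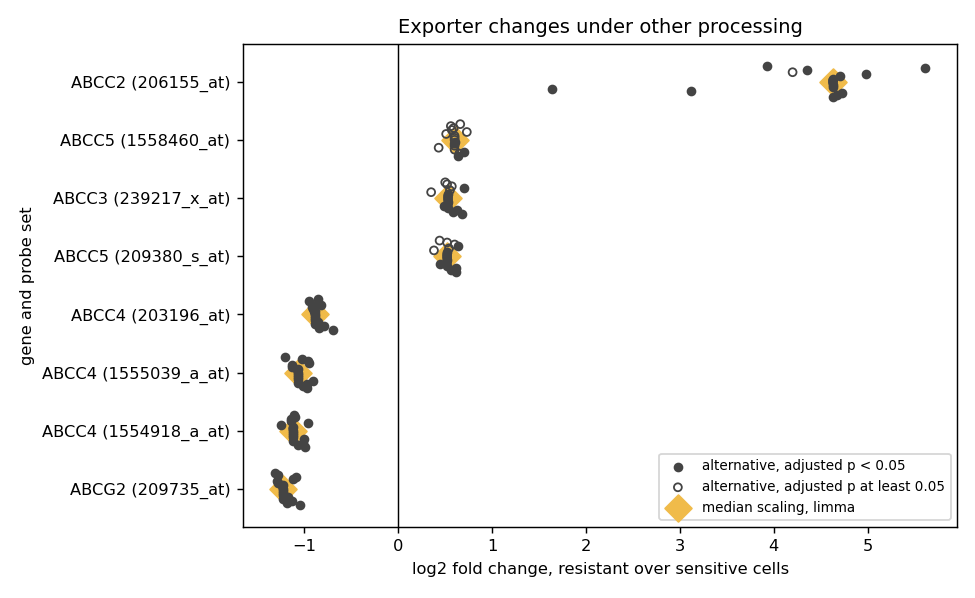
Log2 fold change (resistant over sensitive) of the 7 called probe sets and of ABCC5 1558460_at, which was called under 3 alternatives, with diamonds for the values reported here and points for the alternatives (filled where past the test, and partly overlying each other). No point crosses 0, and ABCC2 spreads widest, between 1.64 and 5.61.

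The genes next to the most changed exporters on the chromosome were read as well, taking the nearest 2 tested genes on each side in the RefSeq gene order. On either side of ABCC2, 3 of 4 neighbours were higher in resistant cells, against 12.4% of all genes: CUTC, a copper-binding protein, with a log2 fold change of 0.67 (limma adjusted p = 0.0015), ERLIN1, a protein of the endoplasmic reticulum, with 0.62 (limma adjusted p = 5.9e-04), and COX15, which acts in heme A synthesis, with 0.46 (limma adjusted p = 0.024). The call for COX15 ended when any 1 sensitive array was left out (limma adjusted p of 0.067 to 0.12). DNMBP, a scaffold protein, had 0.34 and did not pass (limma adjusted p = 0.097), though it did after quantile normalization (limma adjusted p = 0.0016). Around ABCG2, 3 of 4 were lower, against 22.5% of all genes: HERC6, an interferon-induced gene, with -3.72 (limma adjusted p = 1.1e-11), PPM1K, a mitochondrial phosphatase, with -1.41 (limma adjusted p = 1.8e-04), and NUDT9, an ADP-ribose hydrolase, with -0.47 (limma adjusted p = 0.019). The HERC6 value lay between -4.17 and -2.45 under 17 alternatives, 1 of which ended the call. NUDT9 was no longer called without resistant replicate 2, sensitive replicate 1 or sensitive replicate 2 (limma adjusted p of 0.055 to 0.14). DSPP had 0.17 and did not pass (limma adjusted p = 0.81). Copy number was not measured in these arrays.

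Over the 6 arrays, the genes whose log2 signals followed ABCC2 most closely were ACOT11, an acyl-CoA thioesterase (Pearson r = 0.984), HPS1, which acts in the making of lysosome-related organelles (r = 0.980), and LIPT1, a lipoyltransferase (r = 0.979). For ABCG2 they were EIF3H, a translation factor subunit (r = 0.998), LAMP1, a lysosomal membrane protein (r = 0.997), and C3orf52 (r = 0.997). These are descriptions over 6 points in 2 groups, picked from 11835 genes.

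Beyond the drug exporters, 18 other ABC genes were bright enough to test, of 36 with a probe set, and 3 were higher and 7 lower in resistant cells, against 12.4% higher and 22.5% lower of all genes tested, with a median log2 fold change of -0.31 against -0.10 over all genes tested. TAP1 and TAP2, which together carry peptides into the endoplasmic reticulum for antigen presentation, fell most. TAP1 had scaled signals of 2.06, 1.72 and 1.15 in resistant cells, against 18.8, 12.3 and 13.7 in sensitive cells, a log2 fold change of -3.20 (limma adjusted p = 4.4e-15). TAP2 had 2.61, 3.86 and 2.78 in resistant cells, against 15.8, 14.8 and 16.0 in sensitive cells, a log2 fold change of -2.35 (limma adjusted p = 3.4e-13). Neither gene's groups overlapped. ABCF2, a soluble ABC protein with no membrane part, fell by 0.90 on the log2 scale (limma adjusted p = 1.6e-05). ABCB8, a mitochondrial member, fell by 1.09 (limma adjusted p = 0.037), but its groups overlapped, and 8 of 17 alternatives ended the call. Without resistant replicate 2 the value was -0.28 (limma adjusted p = 0.52), and after quantile normalization it was -1.07 (limma adjusted p = 0.15). The 3 higher ones, named after their values were seen, were ABCB6 (0.60, limma adjusted p = 0.0084), ABCB10 (0.52, limma adjusted p = 0.0091) and ABCA2 (0.49, limma adjusted p = 0.048). ABCB10 was not called without sensitive replicate 2 or 3 (limma adjusted p = 0.067 and 0.050), nor ABCA2 without resistant replicate 1 or 2 or sensitive replicate 2 or 3 (limma adjusted p of 0.095 to 0.20).

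Of 6 tested proteins that hold exporters at the apical membrane, 2 were higher and 1 lower, against 12.4% higher and 22.5% lower of all genes. PDZK1, a scaffold that binds the tails of apical transporters, had scaled signals of 2.33, 3.22 and 1.89 in resistant cells, against 10.5, 11.3 and 13.5 in sensitive cells. The groups were far apart, with a log2 fold change of -2.27 (limma adjusted p = 1.3e-11). MSN, which links membrane proteins to actin, had 166, 128 and 128 in resistant cells, against 93.9, 90.9 and 90.4 in sensitive cells, a log2 fold change of 0.61 (limma adjusted p = 1.3e-04). RDX, its close relative and an anchor of ABCC2 in liver, rose by 0.40 (limma adjusted p = 0.038), and was not called without resistant replicate 1 or sensitive replicate 2 or 3 (limma adjusted p of 0.095 to 0.20). Of 9 tested transcription factors and partners known to act on exporter genes, 1 was higher and 1 lower. The shares over all genes were 12.4% and 22.5%. KEAP1, which holds the antioxidant factor NFE2L2 in check, fell by 0.54 on the log2 scale (limma adjusted p = 0.012), but not past the test without resistant replicate 2 or sensitive replicate 1 (limma adjusted p = 0.064 and 0.068). HIF1A, the oxygen-regulated factor, rose by 0.30 (limma adjusted p = 0.049), and the call ended without resistant replicate 1 or 3 or sensitive replicate 2 or 3 (limma adjusted p of 0.052 to 0.21). Quantile normalization gave 3 higher and 2 lower in that list of 9, and 3 higher and 1 lower among the anchors. It also raised the higher calls over all 11835 genes, to 2499, against 2230 lower.

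Glutathione is a co-substrate of several ABCC proteins, and of 8 tested genes for its supply 3 were higher and 1 lower, against 12.4% and 22.5% of all genes. GSR, which regenerates reduced glutathione, had 28.0, 22.8 and 27.8 in resistant cells, against 17.0, 16.9 and 15.1 in sensitive cells, a log2 fold change of 0.68 (limma adjusted p = 0.0011). GCLC, the catalytic subunit of the first enzyme of its synthesis, rose by 0.52 (limma adjusted p = 0.0077) but not past the test without resistant replicate 1 (0.35, limma adjusted p = 0.086). The cystine carrier has a pair of chains whose genes went opposite ways. SLC7A11 rose by 0.45 (limma adjusted p = 0.023) and SLC3A2, shared with other amino acid carriers, fell by 0.57 (limma adjusted p = 0.0047). The call for SLC7A11 ended without resistant replicate 3 or sensitive replicate 1 or 2 (limma adjusted p of 0.055 to 0.26), and that for SLC3A2 without sensitive replicate 1 (limma adjusted p = 0.073).

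The genes by which MTX enters and is kept in the cell included 1 with a wide change. SLC19A1, the reduced folate carrier that takes up MTX, had scaled signals of 1.14, 1.18 and 0.698 in resistant cells, against 17.1, 20.0 and 15.3 in sensitive cells. Every resistant array was near the array median and every sensitive array far above it, a log2 fold change of -4.15 (limma adjusted p = 3.9e-18). GGH, which removes the glutamate residues that hold MTX inside, rose by 0.52 on the log2 scale (limma adjusted p = 0.011), though not past the test without sensitive replicate 2 (limma adjusted p = 0.12). FOLR1, a folate receptor, fell by 0.44 (limma adjusted p = 0.027), and the call ended without resistant replicate 2 or sensitive replicate 3 (limma adjusted p = 0.28 and 0.12) and after quantile normalization (limma adjusted p = 0.16). In that list, 1 of 5 tested genes was higher and 2 lower, against 12.4% and 22.5% of all genes.

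Of 7 tested carriers of organic anions and cations, 1 was higher and 1 lower, against 12.4% higher and 22.5% lower of all genes. Quantile normalization gave 2 higher and 1 lower in this list, against 2499 higher and 2230 lower of all 11835 genes. SLCO3A1, a carrier of prostaglandins and thyroid hormone, had 5.20, 4.30 and 4.82 in resistant cells, against 1.72, 2.10 and 2.74 in sensitive cells, a log2 fold change of 1.15 (limma adjusted p = 3.1e-04). SLCO1B3, a carrier that takes up MTX in liver, fell by 0.56 (limma adjusted p = 0.013), and was not called without resistant replicate 2 or sensitive replicate 1 or 3 (limma adjusted p of 0.052 to 0.12). Of 3 tested drug resistance proteins outside the ABC family, 2 were higher, against 12.4% of all genes, and both are copper pumps driven by ATP. ATP7B had 12.2, 7.77 and 7.86 in resistant cells, against 2.94, 3.85 and 3.25 in sensitive cells, a log2 fold change of 1.44 (limma adjusted p = 4.1e-07). ATP7A had 12.3, 11.1 and 9.85 in resistant cells, against 5.66, 5.23 and 6.16 in sensitive cells, a log2 fold change of 0.96 (limma adjusted p = 4.5e-05). Neither pump's groups overlapped.

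Among the cell type lists, 7 of 10 tested colon epithelium markers were lower in resistant cells and 1 higher, against 22.5% lower and 12.4% higher of all genes, and their median log2 fold change was -0.54, against -0.10 over all genes. CEACAM6 fell by 2.00 on the log2 scale (limma adjusted p = 4.2e-11) and KRT8, an epithelial keratin, by 0.77 (limma adjusted p = 2.2e-07). CEACAM5 fell by 0.89 (limma adjusted p = 0.0081), but not past the test without resistant replicate 2 (-0.62, limma adjusted p = 0.099). CDH17, the intestinal cadherin, rose by 1.20 (limma adjusted p = 0.027), and was not called without resistant replicate 1 or 2 or sensitive replicate 2 (limma adjusted p of 0.064 to 0.21) or after quantile normalization (limma adjusted p = 0.054). CD14, a monocyte marker in the blood cell list, had 0.0902, 0.506 and 0.793 in resistant cells, against 3.05, 2.63 and 1.56 in sensitive cells, and was lower in every resistant array. All its resistant values were under the array median, so it passed the filter only through sensitive arrays and the size of its change is not fixed: the log2 fold change of -2.81 (limma adjusted p = 0.0013) lay between -3.44 and -1.22 under 16 alternatives, 2 of which ended the call. These markers moved between the same groups as the exporters, and their part in the exporter values was not tested.

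**Figure D4:**
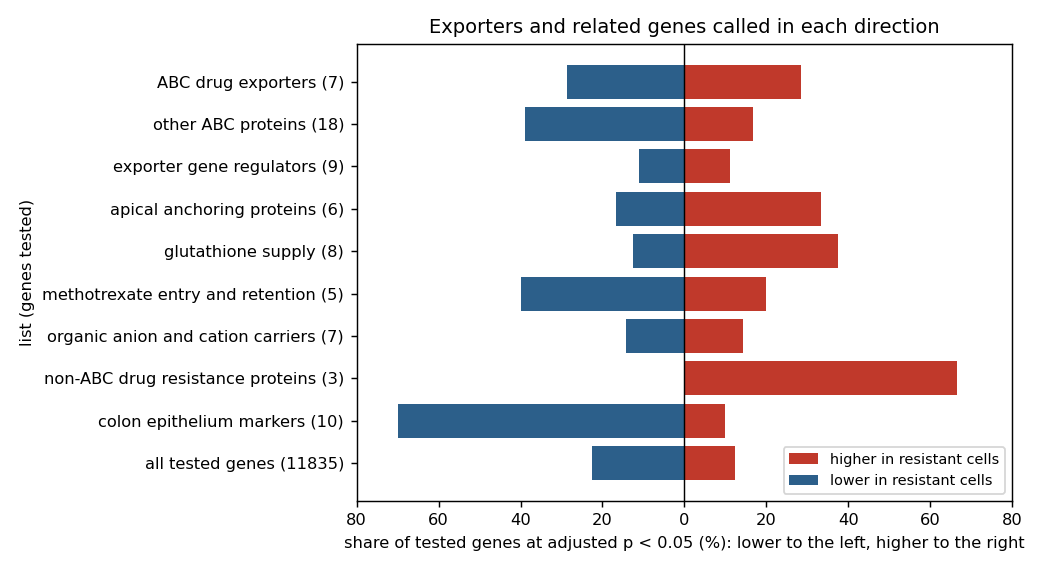
Share of the tested genes of each list (in percent) that passed the test, with genes lower in resistant cells drawn to the left and genes higher to the right, for lists with 3 or more tested genes and for all 11835 genes. The drug exporters had 2 called each way of 7 tested, and the colon epithelium markers have the longest bar to the left (7 of 10). ABCC2, among the 2 higher exporters, passed the filter only through resistant arrays.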

How the data were processed

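The deposited table holds 1 MAS5 signal intensity per probe set and array, which the authors made from Affymetrix scans (MAS5 version and scaling target: not given in the sources used here). Of 54675 probe sets, 62 controls were removed, and of the rest 41091 name 1 gene, 1801 several and 11721 none. Gene names came from GEO's platform annotation, and 41037 probe sets were matched by Entrez number to RefSeq (GRCh38.p14).

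Each array was divided by its median, as in the study's methods, and signals under 0.01 were set to 0.01. Probe sets averaging 1 or more across the 6 arrays were tested on the log2 scale with limma 3.58.1 in R 4.3.3 (lmFit, eBayes with trend, resistant minus sensitive), with Benjamini-Hochberg adjustment over all of them and a threshold of 0.05. Of several RefSeq starts (5 for ABCG2), the one with most others close by was used for the promoter. Fits by gene used the brightest single-gene probe set. An exact permutation test of 3 against 3 could not go below a p of 0.1 and was not used. On simulated data with 26833 probe sets, limma recovered 47% of 100 changed 2-fold and 77% of 100 changed 4-fold, and called 3 unchanged ones. Far fewer probe sets were changed there than the 7791 called in the data, and the noise was drawn independently. These shares therefore do not give the recovery in the data. The members and lists were chosen with earlier results of these data known. Genes were named by a fixed rule: all exporters, up to 4 called genes per list with the largest change, and, for exporters changed at least 2-fold, 2 tested neighbours on each side and the 3 closest correlations. Other scalings, floors, filters, tests, a replicate block and leaving out each array were tried. The number of arrays limits the precision, and no batch was given in the sources used here.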

Additional observations from a re-analysis of the deposited data

How the results depend on the processing

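Of the 7 member probe sets called, all kept their direction in each of the 118 values computed under the alternatives. Much of that was fixed beforehand. The groups of these probe sets do not overlap, so leaving out an array could not turn them. Other tests and filters leave the log2 fold change as it was. The call ended under 9 alternatives each for ABCC3 at 239217_x_at and ABCC5 at 209380_s_at and under 3 for ABCC2. It ended under 1 for ABCG2 and for each tested ABCC4 probe set. Of the 10 probe sets not called, 3 of 168 values passed the test and 11 turned in sign. Those that turned were ABCC1 at 202804_at (-0.07 without resistant replicate 3) and 202805_s_at (0.03 without sensitive replicate 2), ABCC3 at 209641_s_at (-0.04 without resistant replicate 1), 230682_x_at (-0.06 without resistant replicate 1 and -0.15 without sensitive replicate 1) and 242553_at (0.41, 0.21 and 0.10 without resistant replicate 1, sensitive replicate 2 and sensitive replicate 3), and ABCC5 at 226363_at (-0.24, -0.18 and -0.12 without resistant replicate 1, resistant replicate 2 and sensitive replicate 1). With 1 array left out, these probe sets ran, in that order, between -0.07 and 0.23, -0.29 and 0.03, -0.04 and 0.40, -0.15 and 0.13, -0.86 and 0.41, and -0.24 and 0.50. None of the turned values passed the test, and the cause was not tested.

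The count of member probe sets higher, 3 as reported, was 1 with no filter (all low probe sets then enter the adjustment) and 1 with the 3-fold minimum. It was 0 by both a two-group test with equal variances and its unequal-variance form, which gave 4 and 2 at an unadjusted p under 0.05. ABCC2 was called by neither form (adjusted p = 0.079 and 0.15). With 1 array left out the count was 1 to 2. The count lower, 4, stayed at 4 when any 1 array was left out, and was 0 with the 3-fold minimum (limma, 0 also at an unadjusted p under 0.05) and 0 by the unequal-variance test (4 at an unadjusted p under 0.05). Member genes higher, 2 as reported, numbered 1 with no filter, 1 with the mean of all probe sets and 1 to 2 with 1 array left out. Counts over all genes under these settings are not given here, nor are shares over all probe sets at an unadjusted p. With no filter, 1991 of all 54613 probe sets were higher and 4104 lower. Of all probe sets, the higher calls, 2554, became 418 with the 3-fold minimum, 4189 with quantile normalization, 3878 with scaling to the median of probe sets past the filter, 826 by the two-group test and 81 by its unequal-variance form. The lower calls, 5237, became 509 with the 3-fold minimum, 3366 without limma's trend, 1879 by the two-group test and 136 by its unequal-variance form. With 1 array left out they were 1917 to 2513 higher and 3774 to 6498 lower.

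Same-numbered arrays deviated together only weakly (r = 0.14, 0.01 and 0.08). For differently numbered arrays r was -0.11 to 0.03. The numbers were not taken as pairs. A replicate block changed no member count (3 higher, 4 lower) and gave 3076 higher and 6400 lower calls over all probe sets. Without the block these were 2554 and 5237. ABCC2, ABCC3 at 242553_at and ABCC5 at 226363_at could not be fitted under a filter at a mean of 2, since their means lie below that. Low signals limit ABCB1, ABCC2 in sensitive cells and the dim ABCC4 probe set, for which sizes of change are not fixed.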
